A study of Homo sapiens with 6 samples.

Results

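The 9 genes described here are the liver X receptors NR1H2 and NR1H3, their partner receptor RXRA, and 6 genes of sterol export and lipid remodelling that the receptors are known to control, namely ABCA1, ABCG1, MYLIP, APOE, LPCAT3 and SMPDL3A. They were taken by symbol from the 60671 genes of the deposited count tables, and each of the 9 symbols matched 1 gene. RNA was sequenced from NCI-H69, an established human cell line from a neuroendocrine small cell lung tumour, labelled wild type in all samples. The 3 GNF5 samples received GNF5, an allosteric inhibitor of the ABL kinases, for 48 h, at 20 µM by the sample labels although the protocol text writes millimolar. The 3 DMSO samples received the vehicle DMSO, and their time label is also 48 h. All 6 samples come from 1 cell line grown in medium with serum, and nothing in the labels says that the samples of a group were separate cultures, so the p-values rest on a spread that may be technical only.

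Liver X receptors are nuclear receptors that sense oxysterols and the cholesterol precursor desmosterol. Bound to DNA as a pair with a retinoid X receptor, they switch on genes that move cholesterol out of the cell or limit its uptake, while the SREBP2 factor, which is active when sterol is scarce, drives synthesis and uptake. The DNA element of the pair is a direct repeat of the half-site AGGTCA with 4 bases between the copies. In many tissues the receptors also drive fatty acid synthesis through SREBF1.

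Total counts were 46148701 to 58771023 in the GNF5 libraries and 56467189 to 60697602 in the DMSO libraries, and 3 counts correspond to 0.0494 to 0.065 CPM, the count scaled to library size. Mitochondrially encoded genes took 7.88% to 8.66% of counts in GNF5 libraries and 6.93% to 7.5% in DMSO libraries. All 10 neuroendocrine markers examined were expressed above 1 CPM, with a summed level of 7276 to 7425 CPM with GNF5 and 5605 to 5781 CPM with DMSO. By the edgeR test given below, 4 of these 10 were higher with GNF5 and 1 lower (all tested genes: 31.0% and 30.7%). Their median log2 change was 0.05, so the sum does not stand for each marker. Macrophages are rich in several of the 9 genes. The 10 macrophage and leukocyte markers summed to 3.51 to 4.51 CPM with GNF5 and 4.76 to 5.10 CPM with DMSO. CD163 and CD3E were at 0 counts in all 6 libraries. Of the 3 that could be tested, 1 was higher with GNF5 and 1 lower (all tested genes: 31.0% and 30.7%), both by at least 2-fold. The 8 hepatocyte markers summed to 2.62 to 3.05 CPM with GNF5 and 2.62 to 2.98 CPM with DMSO, with APOB and CYP7A1 at 0. The 7 fibroblast markers summed to 68.2 to 76.1 CPM with GNF5 and 127.2 to 132.9 CPM with DMSO, most of it COL1A2, and COL3A1 was at 0. Of the 5 fibroblast markers that could be tested, 1 was higher with GNF5 and 3 lower (all tested genes: 31.0% and 30.7%). The part of the mitochondrial share and of the fibroblast markers in the results was not tested.

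Promoter sequences were searched for the receptor element and for 2 common promoter motifs. RefSeq (GRCh38.p14) windows of 250 bases before and 50 bases after the annotated start were given for 7 of the 9 genes, 13 windows in all. None was given for ABCG1 and SMPDL3A, so their promoters were not searched. NR1H3, RXRA and APOE had more than 1 window each, and some windows of NR1H3 and APOE overlap. The 13 windows were searched on both strands for the motif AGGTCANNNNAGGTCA with up to 2 mismatches among its 12 fixed bases. The E-box CACGTG and the GC box GGGCGG were searched for without mismatch. A spaced repeat was found in 1 of the 13 windows, that of ABCA1, against 2.34% of all 35116 promoter windows. An E-box was also found in 1 of the 13 windows, again that of ABCA1, against 7.26% of all windows. A GC box was found in 9 of the 13, against 45.0% of all windows. Below are the windows of ABCA1 and LPCAT3 and the first of the 3 windows of APOE. ABCA1 and APOE were higher with GNF5, and LPCAT3 was lower. Capitals mark the matches to the 3 motifs, which did not overlap each other, and each window is written 5′ to 3′ on the strand of its gene.
ABCA1 (chr9:104928106-104928405, minus strand): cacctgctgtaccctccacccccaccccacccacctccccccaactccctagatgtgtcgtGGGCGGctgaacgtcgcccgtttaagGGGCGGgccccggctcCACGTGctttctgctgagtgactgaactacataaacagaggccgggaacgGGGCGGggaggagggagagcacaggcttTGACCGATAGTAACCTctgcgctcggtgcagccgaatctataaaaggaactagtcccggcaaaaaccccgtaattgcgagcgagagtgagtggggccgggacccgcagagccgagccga
APOE (chr19:44905546-44905845, plus strand): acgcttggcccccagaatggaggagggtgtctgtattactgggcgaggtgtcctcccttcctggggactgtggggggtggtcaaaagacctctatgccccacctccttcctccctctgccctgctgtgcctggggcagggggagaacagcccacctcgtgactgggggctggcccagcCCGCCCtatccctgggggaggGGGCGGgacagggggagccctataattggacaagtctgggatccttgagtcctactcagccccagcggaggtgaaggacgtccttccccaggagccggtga
LPCAT3 (chr12:7018427-7018726, minus strand): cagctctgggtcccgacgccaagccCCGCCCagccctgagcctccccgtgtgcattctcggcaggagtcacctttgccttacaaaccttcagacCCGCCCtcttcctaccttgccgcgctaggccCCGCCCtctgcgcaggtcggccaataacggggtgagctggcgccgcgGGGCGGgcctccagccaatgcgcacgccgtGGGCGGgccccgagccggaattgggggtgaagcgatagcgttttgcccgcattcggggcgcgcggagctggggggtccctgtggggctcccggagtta
The repeat of ABCA1 lies 54 to 69 bases before the start (chromosome 9, 104928209 to 104928224) and reads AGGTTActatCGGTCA on the strand opposite to the gene, with its half-sites in capitals. Its E-box lies 142 to 147 bases before the start. The capitals in the APOE and LPCAT3 windows are GC boxes on either strand, 2 in APOE and 5 in LPCAT3. The other windows of APOE, which start at 44905771 and 44906151, held 0 matches to any of the 3 motifs. A match is a stretch of letters and no evidence of binding, and no match says only that these letters are not in the window.

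With GNF5, the transporter genes ABCA1 and ABCG1 and the apolipoprotein gene APOE rose about 2-fold or more, the receptors moved by little, and MYLIP and the phospholipid gene LPCAT3 did not follow. All 9 genes passed the filter on low counts. By edgeR's quasi-likelihood test with Benjamini-Hochberg adjustment over all 20734 genes tested, 8 of the 9 were called, against 61.6% of all tested genes. Of the 9, 6 were higher with GNF5 and 2 lower, against 31.0% and 30.7% of all tested genes. The lower count was 1 with the DESeq2 test, with no filter, with a replicate block, and without any 1 of GNF5 replicates 1, 2 and 3 or DMSO replicates 2 and 3, where NR1H3 lost its call. A rise of at least 2-fold was seen for 3 of the 9, ABCA1, ABCG1 and APOE, against 4.95% of all tested genes, and a fall of that size for 0 of the 9, against 6.69%. Without DMSO replicate 2 the log2 fold change of APOE was 0.98, under 2-fold. The values of the 2 groups did not overlap for 8 of the 9 genes, against 65.9% of all tested genes. The median log2 fold change of the 9 was 0.27, against 0.0057 over all tested genes, and their median absolute change was 0.34, equal to the 0.34 over all tested genes. In bulk RNA, fewer cells that express a gene and less of its RNA per cell cannot be told apart.

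**Figure D1:**
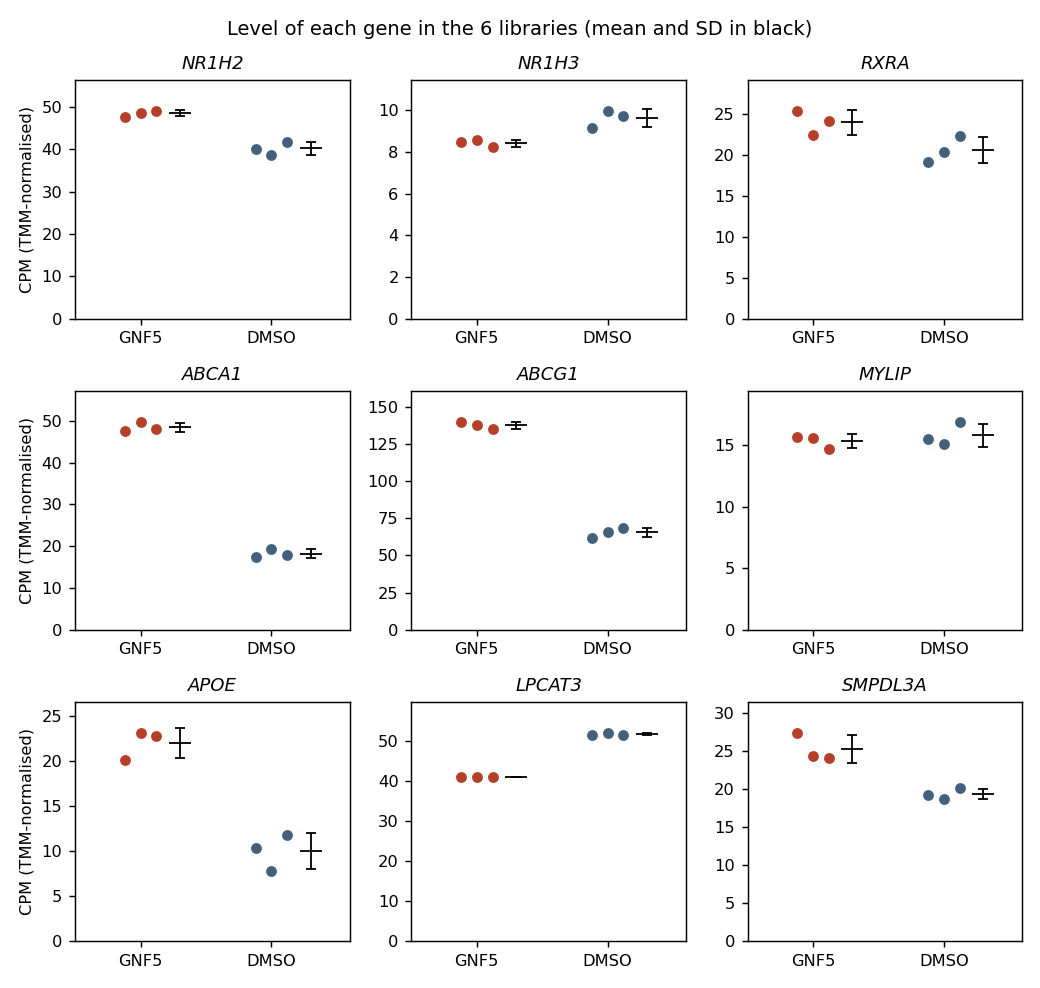
Level of each of the 9 genes in CPM (TMM-normalised) in the 3 GNF5 and 3 DMSO libraries, each point 1 library, with mean and SD in black and every axis starting at 0. ABCA1, ABCG1 and APOE separate widely with GNF5 on top, LPCAT3 separates with DMSO on top, and MYLIP overlaps.

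The receptor genes changed little and in different directions. NR1H2 (ENSG00000131408, chromosome 19, 50329653 to 50383388, GRCh38) encodes LXR beta, the receptor found in most tissues. It had 47.7, 48.6 and 49.1 CPM with GNF5 and 39.99, 38.7 and 41.8 CPM with DMSO. All 3 GNF5 libraries lay above all 3 DMSO libraries, by a log2 fold change of 0.27 ± 0.045 (SE, edgeR adjusted p = 6.34e-06). Of its exon bases, 22.1% lie opposite exons of NAPSA, which had 0.803 CPM with GNF5 and 0.442 CPM with DMSO.

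NR1H3 (ENSG00000025434, chromosome 11, 47248300 to 47269033) encodes LXR alpha, the form enriched in liver, fat and macrophages and itself a target of the receptor in human cells. Its level was 8.46, 8.56 and 8.23 CPM with GNF5 and 9.14, 9.97 and 9.73 CPM with DMSO. The groups did not overlap, but the log2 fold change of -0.19 ± 0.080 was near the threshold (edgeR adjusted p = 0.0385). That call was lost in 8 of 13 alternatives, over which the adjusted p ran from 0.0206 to 0.11. They include the fit with the replicate number as a block (adjusted p = 0.0581). NR1H3 thus had a lower value in each setting without passing the threshold in most of them.

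RXRA (ENSG00000186350, chromosome 9, 134317098 to 134440585), the shared partner of the 2 receptors, had 25.4, 22.4 and 24.1 CPM with GNF5 and 19.1, 20.3 and 22.3 CPM with DMSO. The lowest GNF5 library lay just above the highest DMSO library, and the log2 fold change was 0.22 ± 0.062 (edgeR adjusted p = 0.00297). Of the other retinoid X receptors, RXRG rose by 0.21 ± 0.053 on the log2 scale, and for RXRB the log2 fold change was 0.01 ± 0.037 (edgeR adjusted p = 0.843).

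Per length, in TPM, which divides the counts by exon length before scaling, LXR beta RNA was above LXR alpha RNA in every library. The ratio of NR1H2 to NR1H3 in TPM was 4.78, 4.82 and 5.06 with GNF5 and 3.71, 3.30 and 3.65 with DMSO. The ratio was higher in all 3 GNF5 libraries, with p = 0.1 by a two-sided exact permutation test, the smallest p that 3 against 3 libraries can give. RXRA was the lowest of the retinoid X receptors, at 6.57 ± 0.468 TPM with GNF5 and 5.63 ± 0.421 TPM with DMSO (SD, n = 3 each). RXRB had 10.5 times the TPM of RXRA with GNF5 and 12.1 times with DMSO, and RXRG 9.15 and 9.18 times. These levels divide by the merged exon length in the annotation, 12077 bases for RXRA, so a gene with long exons that the cells do not use reads low.

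The sterol export genes held the largest changes of the 9. ABCA1 (ENSG00000165029, chromosome 9, 104781006 to 104928155) hands cholesterol and phospholipid to lipid-poor apolipoprotein A1. It had 47.6, 49.7 and 48.2 CPM with GNF5 and 17.4, 19.4 and 17.99 CPM with DMSO. Every GNF5 library was more than 2-fold above every DMSO library, and the fold change was 2.66 (log2 1.41 ± 0.051, edgeR adjusted p = 1.61e-19). Its absolute log2 fold change exceeded that of 94.1% of tested genes.

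ABCG1 (ENSG00000160179, chromosome 21, 42199689 to 42297244) moves cholesterol towards high-density lipoprotein particles. Its level was 139.8, 138 and 135 CPM with GNF5 and 62.0, 66.0 and 68.5 CPM with DMSO. The groups lay far apart relative to their spread, with a 2.10-fold rise (log2 1.07 ± 0.039, edgeR adjusted p = 2.23e-19). The ratio of ABCG1 to ABCA1 in TPM was 5.22 ± 0.158 with GNF5 and 6.62 ± 0.366 with DMSO (SD, n = 3 each), a difference with p = 0.1 by the same exact permutation test. ABCG1 was the more abundant of these transporters per length in both groups.

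APOE (ENSG00000130203, chromosome 19, 44905791 to 44909393) encodes a secreted apolipoprotein that accepts exported sterol. It had 20.1, 23.1 and 22.8 CPM with GNF5 and 10.3, 7.79 and 11.8 CPM with DMSO. DMSO replicate 2 was the lowest and DMSO replicate 3 the highest of their group, and no GNF5 library fell into their range. The rise was 2.21-fold (log2 1.14 ± 0.123, edgeR adjusted p = 8.08e-06), with a 95% confidence interval of 0.87 to 1.41 on the log2 scale, the widest of the 9 genes.

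**Figure D2:**
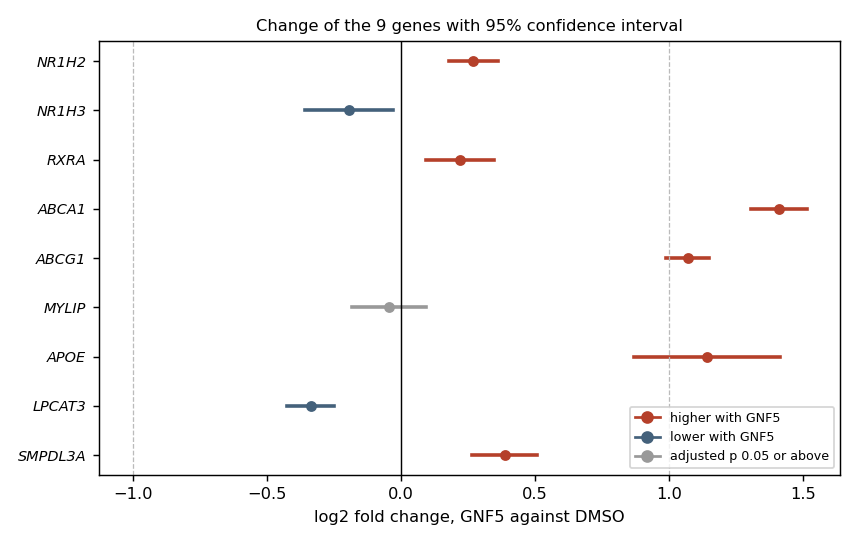
Log2 fold change of GNF5 against DMSO for the 9 genes, with points for the edgeR estimate, bars for its 95% confidence interval and dashed lines at a 2-fold change. ABCA1, APOE and ABCG1 stand at 1.41, 1.14 and 1.07, and the other 6 genes lie between -0.34 and 0.39.

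MYLIP did not move with the exporters. MYLIP (ENSG00000007944, chromosome 6, 16129086 to 16148248), also called IDOL, is the ubiquitin ligase that marks lipoprotein receptors such as VLDLR and LRP8 for degradation. It had 15.7, 15.6 and 14.7 CPM with GNF5 and 15.5, 15.1 and 16.9 CPM with DMSO. The groups overlapped, and the log2 fold change was -0.04 ± 0.067 (edgeR adjusted p = 0.589) with a 95% confidence interval of -0.18 to 0.09, which holds no change of the size seen for ABCA1.

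VLDLR and LRP8, receptors that MYLIP acts on, changed in different directions. Both were singled out after their values were seen. VLDLR rose to 61.9 ± 2.25 CPM with GNF5, against 43.97 ± 3.01 CPM with DMSO (SD, n = 3 each), a log2 fold change of 0.49 ± 0.048. LRP8 fell to 59.9 ± 2.12 CPM with GNF5, against 66.8 ± 1.94 CPM with DMSO (SD, n = 3 each), a log2 fold change of -0.16 ± 0.042. Of the 9 lipoprotein receptor and control genes, 4 were higher and 4 lower (all tested genes: 31.0% and 30.7%). The list's median log2 change was 0.09. SCARB1, a receptor for high-density lipoprotein, fell (-1.35 ± 0.044). The endocytic receptors SORL1 and LRP1 rose by 0.67 ± 0.038 and 0.73 ± 0.057.

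The phospholipid gene among the 9 fell. LPCAT3 (ENSG00000111684, chromosome 12, 6976185 to 7018477) adds polyunsaturated fatty acids to lysophosphatidylcholine. It had 41.0, 41.1 and 41.0 CPM with GNF5 and 51.5, 52.1 and 51.7 CPM with DMSO. The 3 values of each group nearly coincided, and the log2 fold change was -0.34 ± 0.042 (edgeR adjusted p = 7.51e-08). Of the exon bases of LPCAT3, 66.0% lie opposite exons of EMG1 on the other strand. The counting was set to be strand-specific, but how fully it separated the strands was not tested. EMG1 itself had a value of 0.06 on the log2 scale (edgeR adjusted p = 0.206).

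Relatives of LPCAT3 went both ways, and more of them were lower than higher. Of 10 other acyltransferase genes of lysophospholipids and phosphatidic acid, 4 were higher and 6 lower (all tested genes: 31.0% and 30.7%). The list's median log2 change was -0.15. LPCAT4, MBOAT1 and LPCAT1 rose by 0.92 ± 0.043, 0.67 ± 0.051 and 0.33 ± 0.035, and AGPAT2 fell (-0.64 ± 0.047).

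SMPDL3A (ENSG00000172594, chromosome 6, 122789049 to 122809720) encodes a secreted phosphodiesterase related to acid sphingomyelinase, and it is known as a receptor target in human macrophages. Its level was 27.4, 24.4 and 24.1 CPM with GNF5 and 19.2, 18.8 and 20.1 CPM with DMSO. All 3 GNF5 libraries were higher, GNF5 replicate 1 the most, by 1.31-fold (log2 0.39 ± 0.059, edgeR adjusted p = 1.70e-06). Of 7 tested genes of its family and of ceramide breakdown, 3 were higher and 2 lower (all tested genes: 31.0% and 30.7%). Without DMSO replicate 1, 1 was higher. The list's median log2 change was 0.13. The closest relative SMPDL3B fell (-0.67 ± 0.114), SMPD4 fell (-0.35 ± 0.040), and the ceramidase ASAH1 and SMPD3 rose by 0.33 ± 0.042 and 0.13 ± 0.042.

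**Figure D3:**
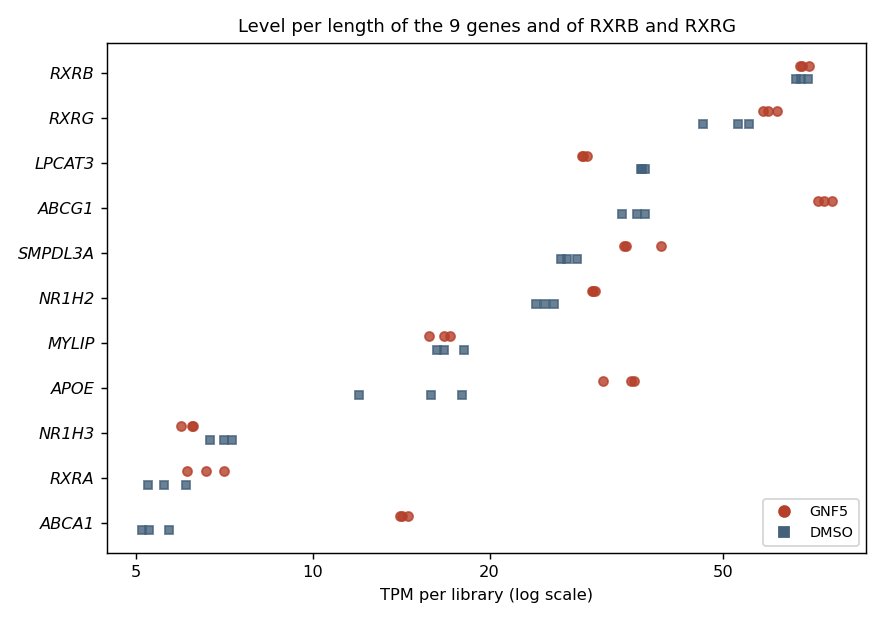
Level per length (TPM, log axis) in each library for the 9 genes and for RXRB and RXRG, with GNF5 as circles and DMSO as squares, ordered by the DMSO mean. ABCA1 is the lowest of the 9 with DMSO at 5.35 TPM and stands at 14.3 TPM with GNF5, and ABCG1 is the highest of the 9 with GNF5 at 74.5 TPM.

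The order of the 9 genes per length differed between the groups. With GNF5, ABCG1 was highest (74.5 ± 2.01 TPM), followed by SMPDL3A (35.7 ± 2.95) and APOE (33.8 ± 2.21), whose library values overlapped, then NR1H2 (30.1 ± 0.156), LPCAT3 (28.96 ± 0.308), MYLIP (16.5 ± 0.704) and ABCA1 (14.3 ± 0.245). RXRA (6.57 ± 0.468 TPM) and NR1H3 (6.15 ± 0.155 TPM) were lowest and overlapped. With DMSO, LPCAT3 (36.5 ± 0.256 TPM) and ABCG1 (35.4 ± 1.63 TPM) were highest and overlapped, followed by SMPDL3A (27.3 ± 0.839), NR1H2 (24.9 ± 0.871), and then MYLIP (17.0 ± 0.953) and APOE (15.3 ± 3.04), which overlapped. NR1H3 (7.01 ± 0.301 TPM), RXRA (5.63 ± 0.421 TPM) and ABCA1 (5.35 ± 0.303 TPM) were lowest, and the values of RXRA and ABCA1 overlapped.

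Other genes known as receptor targets moved in both directions. Of 16 listed, 11 were expressed enough to test, and 6 were higher and 3 lower (all tested genes: 31.0% and 30.7%). The list's median log2 change was 0.28. The 3 that fell, SCD, FASN and SREBF1, are known for fatty acid synthesis, as is MLXIPL, which rose. The desaturase SCD fell to 215.9 ± 6.44 CPM with GNF5, against 905.2 ± 59.5 CPM with DMSO, and the synthase FASN fell to 663 ± 16.8 CPM, against 1221 ± 15.9 CPM (SD, n = 3 each). SREBF1, the gene for their regulator SREBP1, fell by 0.85 ± 0.037 on the log2 scale. Among those that rose, RNF145, a sterol-responsive ubiquitin ligase, reached 262.3 ± 9.94 CPM with GNF5, against 120.9 ± 1.36 CPM with DMSO.

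Further risers of that list were chosen after their values were seen. PLTP, which transfers phospholipid between lipoproteins, rose by 1.34 ± 0.083 on the log2 scale, to 12.9 ± 0.611 CPM with GNF5, against 5.11 ± 0.191 CPM with DMSO. The phagocytic receptor MERTK, EEPD1, which is known to promote efflux through ABCA1, the lipase LPL and the carbohydrate-sensing factor MLXIPL, which drives fatty acid synthesis genes, rose by 0.69 ± 0.152, 0.51 ± 0.060, 0.45 ± 0.139 and 0.28 ± 0.048. For APOC1, next to APOE in the genome, the log2 fold change was -0.04 ± 0.234 (edgeR adjusted p = 0.887). ABCG5, ABCG8, APOC2, APOC4 and CETP were too low to test, with at most 22 counts each over the 6 libraries. A spaced repeat was found in 1 of 18 promoter windows of 13 of these genes, that of APOC2, against 2.34% of all windows. An E-box was found in 3 of the 18 and a GC box in 10, against 7.26% and 45.0% of all windows. Windows on chromosome 8 were left out, and LPL and FASN were not among the 13. The windows of ABCG5 and ABCG8 overlap each other, and so do some windows of RNF145.

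**Figure D4:**
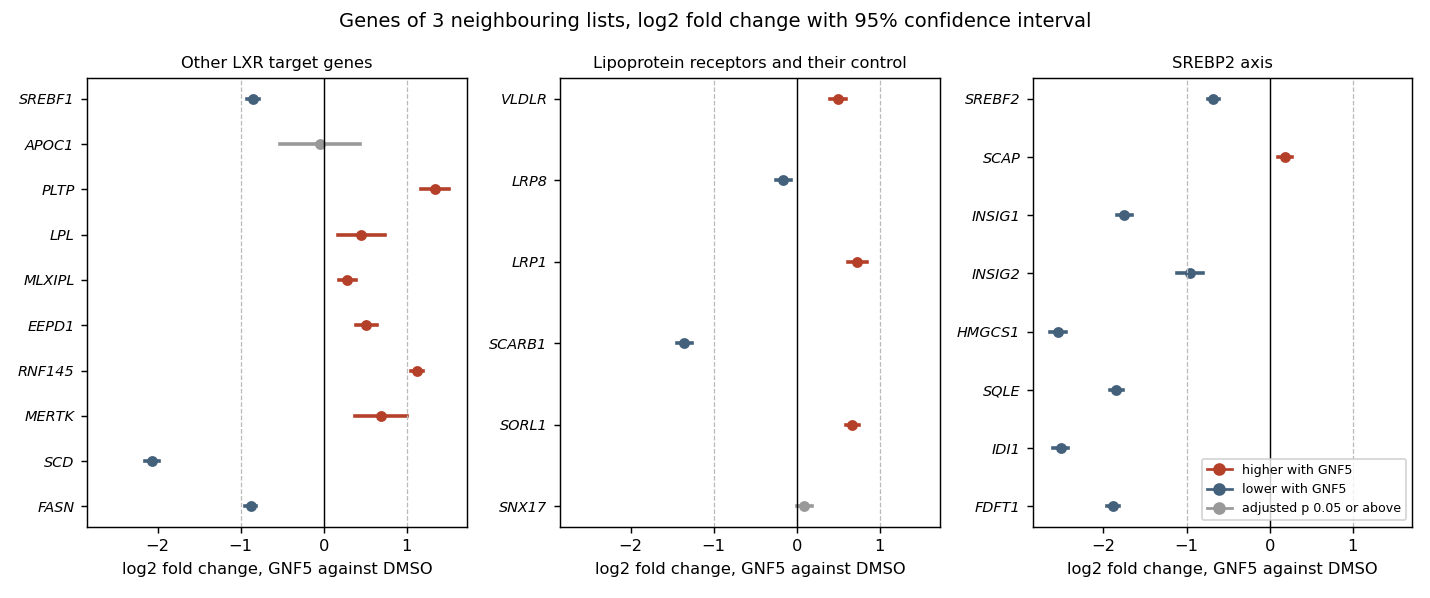
Log2 fold change of GNF5 against DMSO for genes of 3 neighbouring lists, with points for the edgeR estimate, bars for its 95% confidence interval and dashed lines at a 2-fold change. SCD, FASN and SREBF1 lie left of 0 while PLTP and RNF145 lie beyond a 2-fold rise, and of the SREBP2 axis genes shown, SCAP alone lies right of 0.

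Genes of the SREBP2 axis moved against the exporters. Of 10 listed, 9 were lower and 1 higher (all tested genes: 30.7% and 31.0%). The list's median log2 change was -1.80. IDI1, FDFT1 and SQLE, enzymes of the pathway to cholesterol, fell by 2.51, 1.88 and 1.84 on the log2 scale. SREBF2, the gene for SREBP2 itself and singled out after its value was seen, fell by 0.68 ± 0.034, and SCAP, which escorts SREBP2 out of the endoplasmic reticulum, was the one that rose (0.18 ± 0.040).

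Enzymes that make or clear the receptors' ligands were lower or did not pass. Of 10, 8 could be tested, and 6 were lower and 0 higher (all tested genes: 30.7% and 31.0%). The list's median log2 change was -0.87. DHCR7 and EBP, enzymes of late cholesterol synthesis, fell by 1.43 ± 0.042 and 0.78 ± 0.048 on the log2 scale. CYP7B1, which clears oxysterols, fell by 0.97 ± 0.061. The oxysterol-making enzymes CYP27A1 and CYP46A1, singled out after their values were seen, had log2 fold changes of -0.26 ± 0.057 and -1.33 ± 0.166, both past the test. CYP46A1 was low, at 1.50 ± 0.0204 CPM with GNF5 and 3.79 ± 0.932 CPM with DMSO. CH25H and CYP11A1 had at most 4 counts over the 6 libraries.

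Genes that carry, store or release sterol inside the cell were mixed. Of 16, 14 could be tested, and 7 were higher and 3 lower (all tested genes: 31.0% and 30.7%). The list's median log2 change was 0.14. STARD4, a cytosolic sterol carrier, fell by 2.00 ± 0.041 on the log2 scale and TMEM97 fell by 0.59 ± 0.032, while GRAMD1A, which moves sterol from the plasma membrane, and the mitochondrial protein TSPO rose by 0.70 ± 0.040 and 0.88 ± 0.057. SOAT1, which esterifies cholesterol for storage and was singled out after its value was seen, fell by 0.41 ± 0.042.

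Most tested transporters related to ABCA1 and ABCG1 also rose. Of 15 other ABCA and ABCG genes, 7 could be tested, and 5 were higher and 0 lower (all tested genes: 31.0% and 30.7%). The list's median log2 change was 0.45. With other scaling factors, with the DESeq2 test, with the stricter filter and without GNF5 replicate 2 or DMSO replicate 2, 1 of them was called lower. ABCA3, singled out after its value was seen, was the tested one below 0, at a log2 fold change of -0.08 ± 0.034 (SE, edgeR adjusted p = 0.0579). ABCA12, ABCA2, ABCA7 and ABCA5 rose by 1.07 ± 0.094, 0.28 ± 0.033, 0.26 ± 0.042 and 0.58 ± 0.142. The remaining riser, ABCG4, was low, at 0.656 ± 0.171 CPM with GNF5 and 0.200 ± 0.116 CPM with DMSO (SD). With the stricter filter, 4 genes of the list were called higher.

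Receptors that share the retinoid X partner and the proteins that receptors recruit were also examined. Of 13 tested receptor genes, 6 were higher and 3 lower (all tested genes: 31.0% and 30.7%). The list's median log2 change was 0.16. PPARA, the receptor of fatty acid oxidation, reached 27.9 ± 1.70 CPM with GNF5, against 10.5 ± 0.531 CPM with DMSO (SD, n = 3 each). NR4A1 and THRA rose by 0.39 ± 0.049 and 0.34 ± 0.045, and PPARD fell by 0.58 ± 0.077 on the log2 scale. Of 13 co-regulator genes, 7 were higher and 2 lower, beside the same 31.0% and 30.7%, with a median of 0.15. The co-activator PPARGC1A reached 29.8 ± 1.38 CPM with GNF5, against 9.85 ± 1.05 CPM with DMSO (SD, n = 3 each). The co-activators NCOA3 and MED1 rose (log2 0.59 ± 0.055 and 0.46 ± 0.039), as did NCOR1, a co-repressor that holds unliganded receptors silent (log2 0.58 ± 0.040). The 2 lower ones, NCOA2 and HDAC3, were singled out after their values were seen (log2 -0.19 ± 0.039 and -0.37 ± 0.043).

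The genes whose pattern over the 6 libraries was most like that of ABCA1 were PTPN23, IARS1 and SPCS3, with Pearson correlations of log2 CPM of 0.9995, 0.99949 and 0.99942. The 6 points fall into the 2 treatment groups, and 667 of the 10950 genes searched had a correlation above 0.99 with ABCA1.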

How the data were processed

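RNA sequencing of 3 GNF5 and 3 DMSO samples of NCI-H69 was analysed from the deposited raw counts per gene. These counts were made by the authors with featureCounts 1.6.1 for reverse-stranded read pairs, per gene over the exons of Ensembl release 101 (GRCh38), per the file headers, whose command holds no option for multi-mapped or multi-overlapping reads. The exon length, exon coordinates and strand per gene, the other deposited columns used, come from the same step. The submitters' processing notes instead name GRCh37, beside HTSeq, STAR, Trim Galore and DESeq2, with no roles. The headers were followed. Symbols were found for 60401 of 60671 gene IDs.

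GNF5 was compared with DMSO with edgeR 4.0.16 (R 4.3.3): TMM factors, the default expression filter (20734 genes kept), robust quasi-likelihood test, no covariate, Benjamini-Hochberg adjustment over all genes tested, called at 0.05. The fit was tested on simulated counts with 200 changed genes, where it called most, not all, of the changes put in. So few changed genes cannot check the scaling when 61.6% of tested genes are called, as here. CPM uses TMM-scaled library sizes and TPM the deposited exon length. SE was back-calculated from the F statistic. All replicate libraries were distinct, with a chi-square per degree of freedom of 3.02 to 8.00 between pairs. Floors cover counting error only.

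The 9 genes and the 10 lists beside them were chosen with earlier results of these data known. Named genes were the 9, then up to 4 called genes per list with the lowest p-values (mean log2 CPM of at least 1), and the 3 genes closest to ABCA1 in pattern. Any other gene named was chosen after its values were seen. Some genes of the lists are counted but not reported here. Alternatives were other scaling factors, DESeq2 1.42.0, other filters, no robust estimation, each library left out, and a replicate block.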

Additional observations from a re-analysis of the deposited data

How the results depend on the processing

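Of 429 pairs of a result and an alternative setting, 405 kept their direction and their side of the threshold, or for counts stayed within 1.5 times. The calls of NR1H2, RXRA, ABCA1, ABCG1, APOE, LPCAT3 and SMPDL3A held in all 13 alternatives. The log2 fold change of NR1H3 passed no threshold with the DESeq2 test (-0.20, adjusted p = 0.0843), with no filter (-0.19, adjusted p = 0.0747) or with a replicate block (-0.19, adjusted p = 0.0581), where 1 of the 9 genes was called lower. With each library left out it ran from -0.23 to -0.17 and the number of the 9 called lower from 1 to 2. MYLIP ran from -0.086 to 0.0016 with each library left out, changing sign without DMSO replicate 3. Of the other ABCA and ABCG genes, 1 was called lower with DESeq2 size factors in edgeR, upper-quartile factors, the DESeq2 test and the stricter filter, and 0 to 1 with each library left out. In the sphingomyelin phosphodiesterase family the number called higher ran from 1 to 3 with each library left out. The causes were not tested. The replicate block changed no other call of the 9 genes. Same-numbered libraries of the groups did not deviate together (correlations -0.0157, 0.0159 and 0.00082). With 3 libraries per group, these values cannot show whether same-numbered samples were handled together. Genes of low level, such as MERTK and ABCA5, carry larger errors at this depth.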
